A study of Mus musculus with 12 samples.

Results

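The genes described here write, erase and read acetyl groups on histones and other proteins. They are 33 genes chosen by name: 11 histone deacetylases, 7 sirtuins, 10 acetyltransferases, the corepressor scaffolds Ncor1, Sin3a and Rcor1, and the reader genes Brd2 and Brd3. All 33 were among the 46095 gene symbols of the deposited count table, and all 33 were among the 17530 genes that passed the filter on low counts. The study measured RNA from mouse renal cortex in 3 groups of 4 libraries: sodium butyrate given in diabetic nephropathy (DN+NaB), diabetic nephropathy without butyrate (DN), and normal controls (NC). Diabetic nephropathy is the kidney disease of diabetes, and butyrate is a short-chain fatty acid of gut bacteria. In all 3 groups the strain was C57BL/6 and the age 12 weeks. How diabetes was brought about, and the dose, route and length of the sodium butyrate treatment, are not stated in the labels. The design text speaks of 4 mice in each group, but which library came from which mouse is not labelled, so the p-values reflect only how far these samples differ among themselves, which may be in part technical.

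Acetyltransferases add acetyl groups to lysines, which on histones generally goes with open chromatin, and deacetylases remove them. Zinc-dependent deacetylases fall into class I, which work in nuclear corepressor complexes, class IIa, which move between nucleus and cytoplasm, class IIb and class IV; sirtuins use NAD instead of zinc. Butyrate inhibits many of the zinc-dependent enzymes, class I foremost; Hdac6 and Hdac10 are known to be insensitive to it, and sirtuins are not inhibited. It acts on the proteins, so a measurement of RNA does not read its direct effect.

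Each library held between 58394975 and 70674015 counts, and the 33 genes took 0.179% to 0.216% of them. The extraction protocol names prefrontal cortex while the tissue label reads renal cortex. The kidney gene Lrp2 had 547305 to 852758 counts and Umod 165229 to 481314. The brain genes Snap25 and Mog were at 0 counts throughout, below the 3 counts per library that a 0 allows. Of the other neuron and glia genes listed, Slc17a7 had 0 to 2 counts and Syt1 1 to 15. Rbfox3 had 2 to 28 counts, Gfap 2 to 41 and Mbp 942 to 1501. These are bulk samples, in which fewer cells of a type and less RNA per cell cannot be told apart. Markers of other cells differed between groups: 8 of 8 tested T and NK cell markers were lower in DN+NaB than NC, and their sum was 2.65 to 4.08 CPM (counts scaled to the effective size of each library) in DN+NaB, 6.21 to 19.0 CPM in DN and 16.6 to 28.6 CPM in NC. Of the 9 listed markers Cd2 had 0 counts in all 12 libraries. Macrophage and dendritic cell markers summed to 345 to 1021 CPM in DN+NaB, 1160 to 4218 CPM in DN and 942 to 1301 CPM in NC, but Cd74 alone averaged 482 CPM in DN+NaB, 2600 CPM in DN and 833 CPM in NC. Of the 8 markers, 6 were called lower in DN+NaB than NC; in DN against NC the median log2 fold change was -0.49, 6 of 8 were negative, and Csf1r fell by 0.91 (edgeR adjusted p = 2.66e-04). Markers of dividing cells summed to 43.9 to 50.6 CPM in DN+NaB, 44.9 to 63.0 CPM in DN and 76.0 to 139 CPM in NC, with 6 of 8 lower in DN+NaB than NC. B and plasma cell markers summed to 1.48 to 1.87 CPM in DN+NaB, 1.61 to 2.66 CPM in DN and 8.03 to 24.8 CPM in NC. Fibroblast and mesangial markers summed to 273 to 402 CPM in DN+NaB, 218 to 459 CPM in DN and 404 to 544 CPM in NC, with 2 of 6 lower in DN+NaB than NC and 1 of 6, Col1a2, in DN than NC. Thick ascending limb and distal tubule markers summed to 5419 to 6789 CPM in DN+NaB, 5509 to 7070 CPM in DN and 6373 to 11210 CPM in NC, with 2 of 6 lower and 1 higher in DN+NaB than NC and Umod lower in DN than NC. The part of these cells in the values of the 33 genes was not tested.

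Only 3 of the 33 genes passed the test in any comparison, Hdac5, Hdac7 and Hdac11, and a promoter of each is shown because the values below turn on them. RefSeq promoters of the GRCm38.p6 build, 250 bases before to 50 bases after a transcript start, were matched to 29 of the 33 genes, at 43 starts. Each is written 5′ to 3′ on the strand of its gene, and capitals mark GGGCGG or its reverse CCGCCC, the core of the GC box. The Hdac7 sequence is from 1 of 4 starts, the only one of the 4 that holds this motif.
Hdac5 (chr11:102230123-102230422, minus strand): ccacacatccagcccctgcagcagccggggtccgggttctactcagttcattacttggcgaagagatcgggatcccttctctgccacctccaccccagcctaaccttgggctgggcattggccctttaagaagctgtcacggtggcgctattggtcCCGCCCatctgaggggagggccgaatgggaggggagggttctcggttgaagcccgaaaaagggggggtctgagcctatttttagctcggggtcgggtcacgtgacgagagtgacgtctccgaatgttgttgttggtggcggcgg
Hdac7 (chr15:97831446-97831745, minus strand): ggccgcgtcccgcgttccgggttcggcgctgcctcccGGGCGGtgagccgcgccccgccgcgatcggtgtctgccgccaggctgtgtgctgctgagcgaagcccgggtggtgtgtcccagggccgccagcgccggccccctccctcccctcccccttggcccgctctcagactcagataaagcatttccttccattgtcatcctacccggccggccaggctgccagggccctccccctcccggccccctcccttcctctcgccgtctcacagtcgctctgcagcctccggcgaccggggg
Hdac11 (chr6:91156565-91156864, plus strand): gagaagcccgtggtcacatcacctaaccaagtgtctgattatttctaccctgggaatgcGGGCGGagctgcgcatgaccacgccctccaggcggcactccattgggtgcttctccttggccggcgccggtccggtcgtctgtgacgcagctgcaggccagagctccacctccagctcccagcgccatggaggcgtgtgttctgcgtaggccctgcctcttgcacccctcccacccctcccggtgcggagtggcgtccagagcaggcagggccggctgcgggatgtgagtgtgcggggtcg
Searched on both strands, GGGCGG was in 27 of the 43 promoters (62.8%) and in 35.7% of the 32851 mouse promoters of the same length. TATAAA (reverse TTTATA) was in 4.65% of the 43 and in 13.6% of all. CCGGAA (reverse TTCCGG), the core bound by ETS factors, was in 32.6% and in 14.9%, and CCAAT (reverse ATTGG) was in 39.5% and in 37.4%. CACGTG, its own reverse and the E-box core, was in 4 of the 43 (9.3%), at Hat1, Hdac5, Kat5 and Sirt1, and in 7.15% of all. The 43 promoters had a median of 20 CG dinucleotides, against 7 over all. None of these motifs lies within another, and a match is a description of the sequence only.

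The levels of the 33 genes spanned a wide range within the tissue. Per kilobase of merged exon (GENCODE vM21 lengths, not the authors' annotation), Hdac6, a cytoplasmic class IIb enzyme that deacetylates tubulin, had the highest mean level in each group: 30.5 CPM per kb in DN+NaB, 23.3 in DN and 22.9 in NC. Sirt2, a mainly cytoplasmic sirtuin, stood at 21.3, 19.8 and 18.4 CPM per kb in DN+NaB, DN and NC, and Ncor1, the scaffold of the Hdac3 corepressor complex, at 18.1, 18.6 and 19.8 CPM per kb. Hdac11, the only class IV enzyme, stood at 18.8, 16.6 and 14.4 CPM per kb. The lowest in every group were Brd2, at 0.0301, 0.0226 and 0.0538 CPM per kb, and Hdac9, at 0.0526, 0.0637 and 0.0788 CPM per kb. Brd2 is known as a widely expressed gene, and how its reads were assigned is not known, so these counts may not reflect its expression. Next came Hdac8, a class I enzyme, at 1.35, 1.14 and 1.32 CPM per kb. Neighbours in this order mostly did not differ beyond their spread: the ranges over libraries overlapped in 26 of 32 neighbouring pairs in DN+NaB, 29 of 32 in DN and 25 of 32 in NC. Among the 11 deacetylases, Hdac6 made up 30.4% ± 1.77 of the summed level per kb in DN+NaB, 26.0% ± 1.90 in DN and 27.0% ± 1.09 in NC (mean ± SD, n = 4 each). Hdac7 made up 4.34% ± 0.35 in DN+NaB, 6.60% ± 1.38 in DN and 7.02% ± 0.39 in NC.

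**Figure D1:**
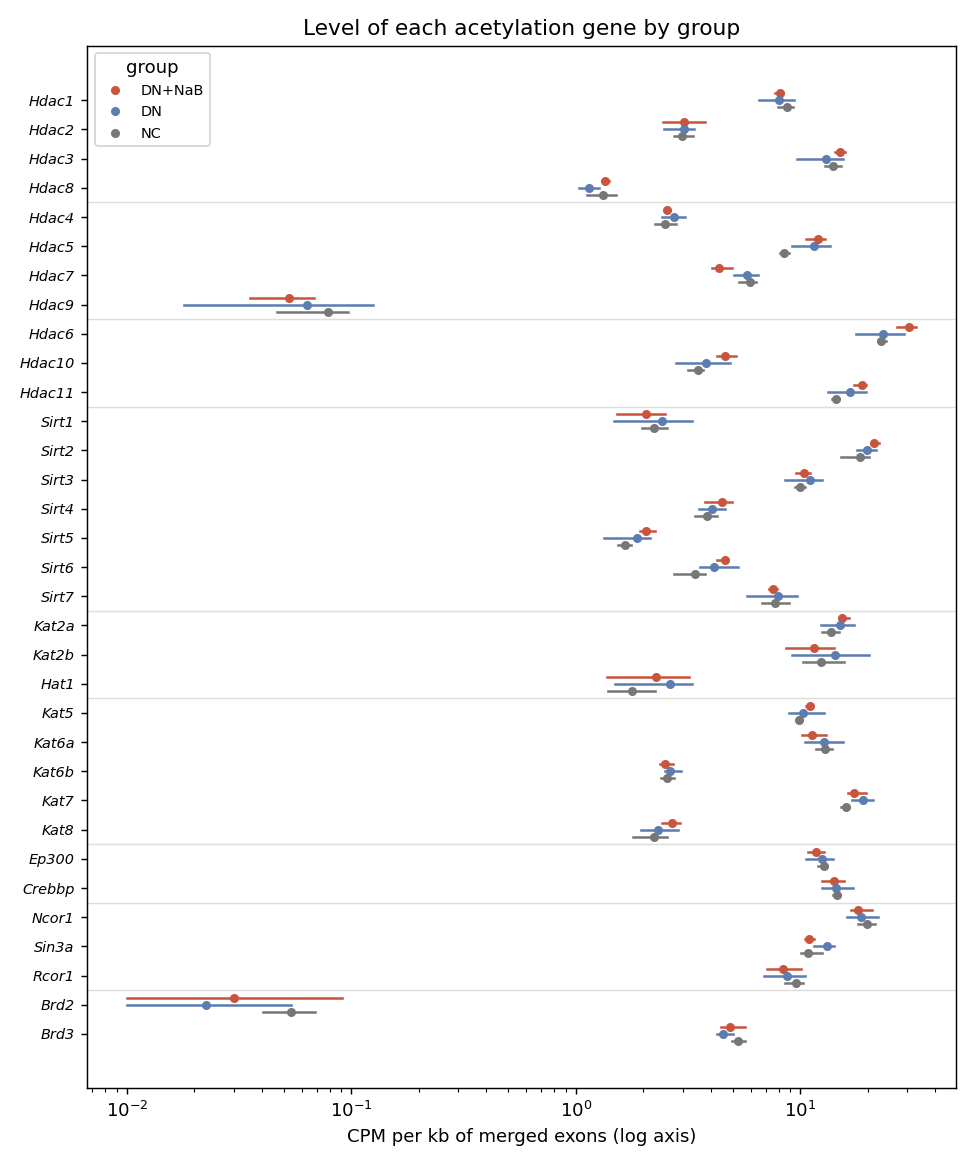
Level of each of the 33 genes in CPM per kb of merged exon (log axis), with the mean over 4 libraries as a point and the lowest to the highest library as a line, for DN+NaB, DN and NC; grey lines part the classes. Hdac6 is highest in each group (30.5, 23.3 and 22.9 CPM per kb in DN+NaB, DN and NC), Brd2 and Hdac9 lie far below the rest, and Brd2 lines with a library at 0 end at the left edge of the data.

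The groups give 3 comparisons, each of which asks whether the genes for these enzymes and their partners differ in RNA level. Genes counted as called had an edgeR quasi-likelihood p under 0.05 after Benjamini-Hochberg adjustment over all 17530 genes. In DN against NC, 1 of the 33 genes was higher (Hdac5) and 0 lower, or 3.03%, while 8.23% of all tested genes were called (3.82% higher, 4.42% lower). At an unadjusted p under 0.05 there were 3 of the 33 (9.09%), against 21.9% of all. Between DN+NaB and DN, 0 of the 33 were called by edgeR and 0.0228% of all tested genes (0.0114% in each direction), with 3 of the 33 at an unadjusted p under 0.05 (9.09%, against 9.85% of all genes); DESeq2 called 1, Hdac7, and limma-voom 0. Between DN+NaB and NC, 2 of the 33 were higher (Hdac5 and Hdac11) and 1 lower (Hdac7), or 9.09%, while 15.6% of all tested genes were called (6.62% higher, 8.94% lower). There the unadjusted p was under 0.05 for 6 of the 33 (18.2%), against 30.1% of all. The median log2 fold change of the 33 was 0.06, 0.00 and 0.03 in these comparisons, beside 0.01, -0.02 and -0.01 over all tested genes. The median absolute log2 fold change of the 33 was 0.12, 0.14 and 0.15, beside 0.23, 0.18 and 0.29 over all tested genes. Each group enters 2 of the 3 comparisons, so their values are not independent.

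The data bounded most of these differences. The 95% interval of the log2 fold change lay within 0.5 of zero on both sides for 24 of the 33 genes in DN against NC, 23 in DN+NaB against DN and 19 in DN+NaB against NC. It lay within 1 of zero for 30, 31 and 31. Groups were counted as separated where all 4 values of one lay beyond all 4 of the other. That held in DN against NC for 2 of the 33 (6.06%, against 13.3% of all tested genes), Hdac5 and Kat7, both higher in DN (5.86% of all genes were separated higher and 7.49% lower). Between DN+NaB and DN it held for 3 (9.09%, against 4.56%): Hdac8 was higher, and Hdac7 and Sin3a were lower, beside 2.13% higher and 2.44% lower of all. Between DN+NaB and NC it held for 10 (30.3%, against 27.9%). Of these Hdac7 was lower and Hdac5, Hdac6, Hdac10, Hdac11, Sirt2, Sirt5, Sirt6, Kat2a and Kat5 were higher, beside 14% higher and 13.9% lower of all. TMM factors (edgeR's default scaling) ran from 0.9419 to 0.9914 in DN+NaB, from 0.9349 to 1.0614 in DN and from 1.0097 to 1.1064 in NC. Those of DN+NaB and NC thus did not overlap. With library size in place of TMM factors, separation held for 1 in DN against NC and for 6 in DN+NaB against NC. The share of all genes separated under that scaling was not counted, so these 2 counts have no background beside them.

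**Figure D2:**
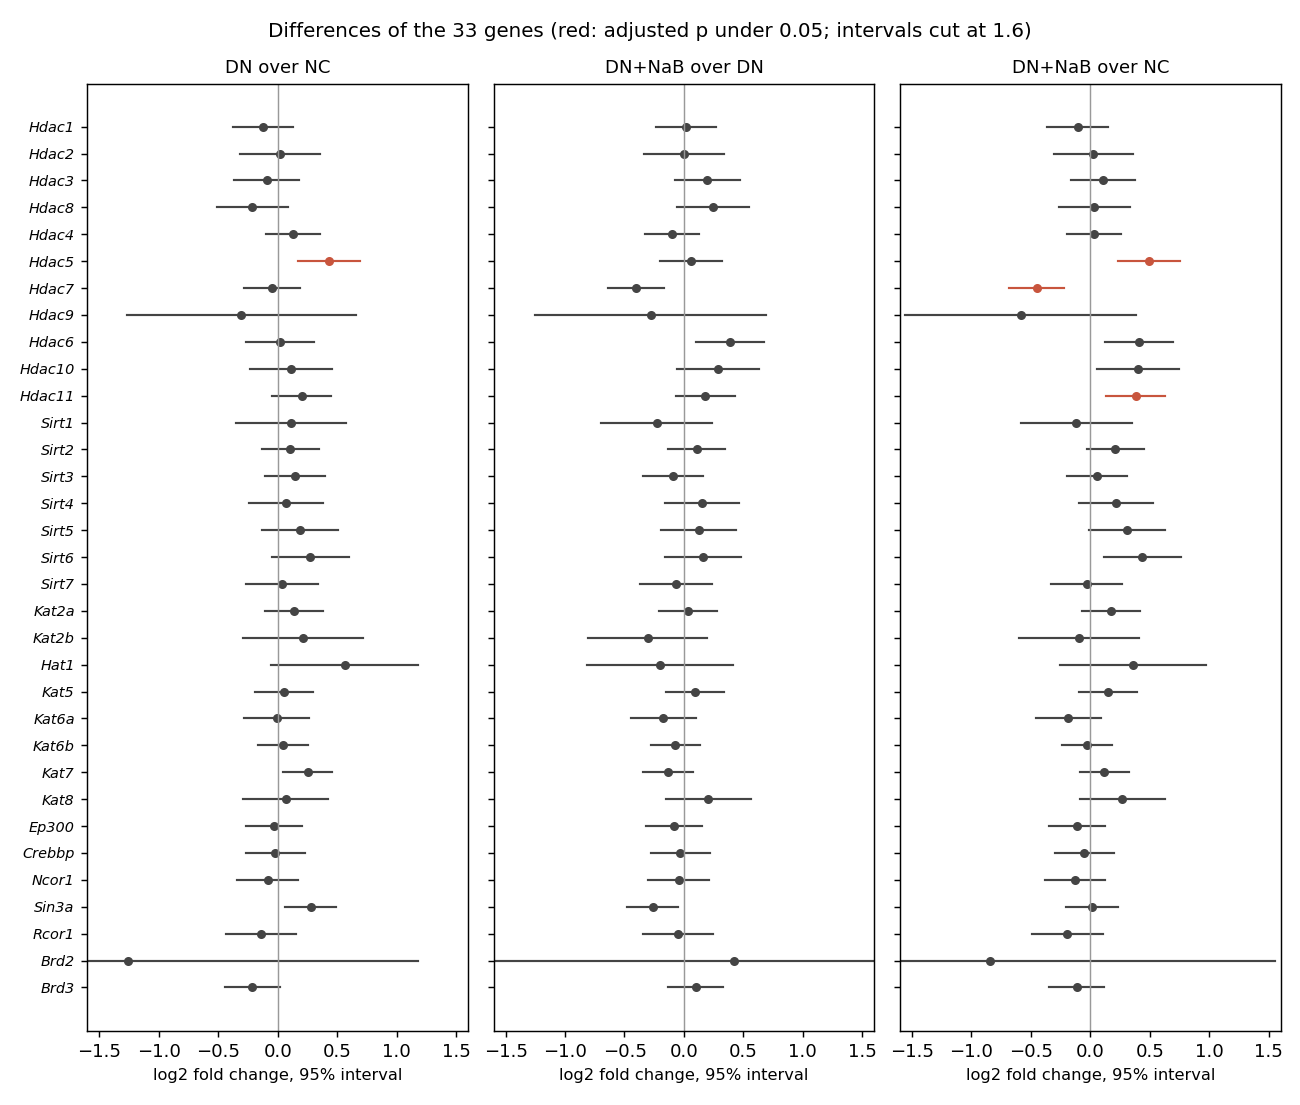
Log2 fold change of each of the 33 genes (point) with its 95% interval (line) in DN over NC, DN+NaB over DN and DN+NaB over NC; red marks an adjusted p under 0.05 and intervals end at 1.6. Hdac5 is called in the first panel, no gene in the second, and Hdac5, Hdac7 and Hdac11 in the third.

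The class IIa genes Hdac4, Hdac5, Hdac7 and Hdac9 encode deacetylases that bind MEF2 factors and shuttle on phosphorylation. Hdac5 had 109, 113, 92.9 and 105 CPM in DN+NaB, 80.6, 119.5, 112 and 90.6 CPM in DN, and 71.5, 78.1, 75.9 and 72.8 CPM in NC. Every DN+NaB and every DN library was above every NC library, and DN+NaB and DN overlapped. Hdac5 rose in DN over NC by 0.43 ± 0.12 on the log2 scale (SE, 95% interval 0.17 to 0.69, edgeR adjusted p = 0.0436) and in DN+NaB over NC by 0.50 ± 0.12 (0.23 to 0.76, adjusted p = 0.0140). Between DN+NaB and DN it differed by 0.06 ± 0.12 (-0.20 to 0.32, adjusted p = 0.882). The call of DN against NC was lost in 10 of 16 alternatives, among them without NC replicate 1, 2, 3 or 4 (adjusted p = 0.115, 0.0761, 0.0885 and 0.0770) and without DN replicate 2 or 3 (adjusted p = 0.131 and 0.0974). The call of DN+NaB against NC held in 16 of 16.

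Hdac7, an enzyme known from endothelial cells and thymocytes, went the other way. It had 33.5, 28.8, 28.2 and 27.2 CPM in DN+NaB, 34.3, 37.6, 40.2 and 43.7 CPM in DN, and 42.8, 40.7, 41.3 and 36.1 CPM in NC. All 4 DN+NaB libraries were below all DN and all NC libraries, though the highest of them was close to the lowest DN library. Hdac7 fell in DN+NaB against NC by 0.45 ± 0.11 on the log2 scale (edgeR adjusted p = 0.0124), in the main test and in 16 of 16 alternatives. Against DN it differed in DN+NaB by -0.40 ± 0.11 (95% interval -0.64 to -0.17, unadjusted p = 0.00237, adjusted p = 0.207); the DESeq2 adjusted p was 0.0371. Between DN and NC it differed by -0.05 ± 0.11 (-0.28 to 0.19, adjusted p = 0.859). Beside this, the 7 endothelial markers summed to 484 to 561 CPM in DN+NaB, 484 to 560 CPM in DN and 577 to 642 CPM in NC, with Tek and Cdh5 lower in DN+NaB than NC, Cdh5 lower in DN than NC and 0 of 7 called in DN+NaB against DN. T and NK cell markers moved as given above, and their part in the Hdac7 values was not tested. The exons of Hdac7 overlap those of Slc48a1 on the other strand by 29 bases; Slc48a1 had 11122 to 16594 counts and differed by 0.03 in DN+NaB against NC (adjusted p = 0.896).

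The other class IIa genes did not pass the test. Hdac4 had 39.6 to 41.7 CPM in DN+NaB, 38.3 to 48.4 CPM in DN and 35.5 to 44.1 CPM in NC. Hdac9 had 36 to 61 counts in DN+NaB, 15 to 113 counts in DN and 44 to 94 counts in NC, and each log2 difference had a standard error of 0.45. Its within-group SD of 0.722 on the log2 scale lay at the 76.8th percentile of genes of like level.

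**Figure D3:**
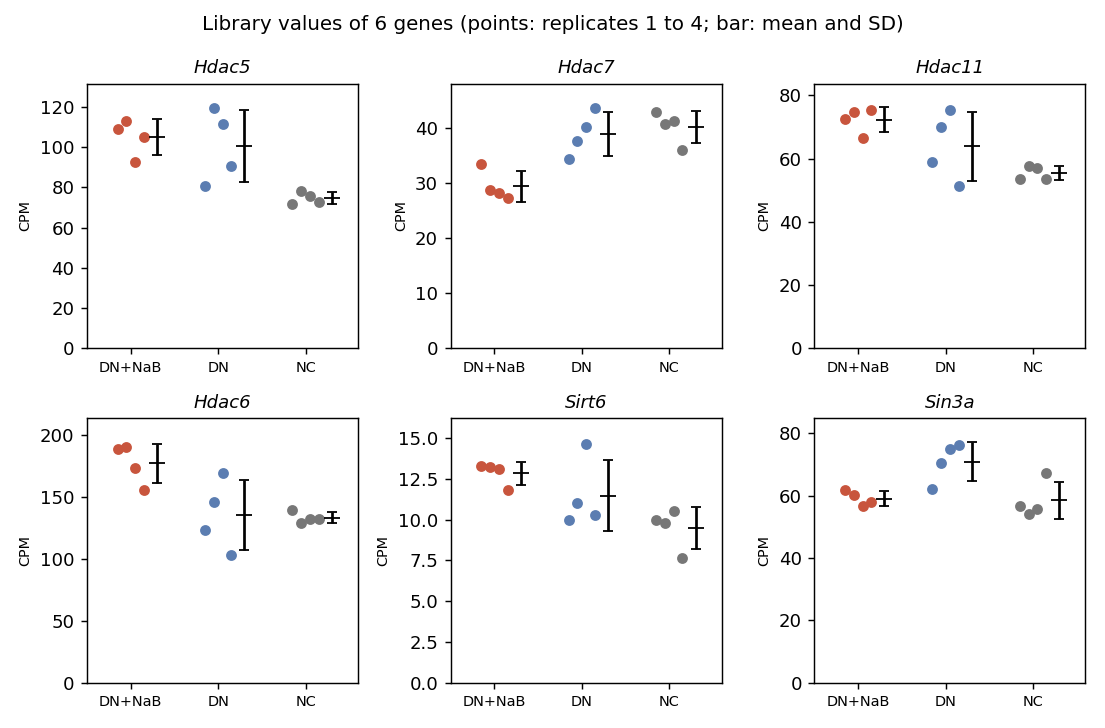
CPM of Hdac5, Hdac7, Hdac11, Hdac6, Sirt6 and Sin3a in each library (points, replicates 1 to 4 from left to right) of DN+NaB, DN and NC, with the mean and SD as a bar beside them; axes start at 0. The 4 DN+NaB values of Hdac7 (27.2 to 33.5 CPM) lie below all others, and the 4 NC values of Hdac5 (71.5 to 78.1 CPM) below all others.

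Class IIb holds Hdac6 and Hdac10, which in human cells deacetylates polyamines, and Hdac11 is class IV. Hdac11 had 72.5, 74.8, 66.6 and 75.3 CPM in DN+NaB, 58.8, 70.0, 75.5 and 51.3 CPM in DN, and 53.7, 57.5, 57.2 and 53.5 CPM in NC. DN+NaB lay above NC in all 4 libraries, while DN spread over both. Hdac11 rose in DN+NaB over NC by 0.38 ± 0.12 on the log2 scale (edgeR adjusted p = 0.0388). This call was lost in 10 of 16 alternatives: without any 1 of the 8 libraries (adjusted p = 0.0520 to 0.0977), with library size only and with no filter on low counts. Hdac11 differed by 0.20 ± 0.12 in DN against NC (adjusted p = 0.335) and by 0.18 ± 0.12 in DN+NaB against DN (adjusted p = 0.647). On the other strand, Gm44002 overlaps 594 bases of the Hdac11 exons (15.4%) and Gm14573 overlaps 96 bases (2.49%). The level of Hdac6 was 189, 191, 174 and 156 CPM in DN+NaB, 123.5, 146, 169 and 103.5 CPM in DN, and 139.6, 129, 132 and 132 CPM in NC. DN+NaB was above every NC library and overlapped DN in 1 library of each. Hdac6 differed by 0.41 ± 0.13 in DN+NaB against NC, just outside the threshold (edgeR adjusted p = 0.0509; called in 5 of 16 alternatives), by 0.39 ± 0.13 in DN+NaB against DN (unadjusted p = 0.0114, adjusted p = 0.348) and by 0.02 ± 0.13 in DN against NC (adjusted p = 0.951). Hdac10 had 14.4 to 17.5 CPM in DN+NaB, 9.41 to 16.4 CPM in DN and 10.7 to 12.5 CPM in NC, and differed by 0.40 ± 0.16 in DN+NaB against NC (adjusted p = 0.108). Proximal tubule markers summed to 26410 to 35190 CPM in DN+NaB, 19830 to 31680 CPM in DN and 22210 to 26940 CPM in NC, with 1 of 8 higher in DN+NaB than NC, and their part in these values was not tested.

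The class I genes Hdac1, Hdac2, Hdac3 and Hdac8 were not called in any comparison. Of all tested genes, 8.23%, 0.0228% and 15.6% were called in DN against NC, DN+NaB against DN and DN+NaB against NC. With so few class I genes, no call is not a result about the class. Their log2 fold changes ran from -0.21 to 0.02 in DN against NC, from 0.00 to 0.25 in DN+NaB against DN and from -0.11 to 0.11 in DN+NaB against NC. Hdac8 was at 6.45, 6.64, 6.78 and 6.30 CPM in DN+NaB, 5.49, 6.12, 5.01 and 5.46 CPM in DN, and 6.40, 5.42, 6.42 and 7.34 CPM in NC. DN+NaB lay above DN without overlap, and NC spread across both; the difference of DN+NaB from DN was 0.25 ± 0.14 (edgeR adjusted p = 0.607). Hdac1, a catalytic subunit of the NuRD, Sin3 and CoREST complexes, was at 28.0, 29.0, 26.6 and 28.1 CPM in DN+NaB, 32.4, 25.4, 29.9 and 22.6 CPM in DN, and 31.8, 32, 27.5 and 28.9 CPM in NC. All 3 groups overlapped for Hdac1, and its difference in DN+NaB against NC was -0.11 ± 0.12 (edgeR adjusted p = 0.584). Hdac3, the catalytic subunit of the NCoR complex, had 57.9 to 64.3 CPM in DN+NaB, 39.4 to 62.8 CPM in DN and 52.0 to 61.3 CPM in NC.

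Of the 7 sirtuins, NAD-dependent enzymes found in nucleus (Sirt1, Sirt6, Sirt7), cytoplasm (Sirt2) and mitochondria (Sirt3, Sirt4, Sirt5), 0 were called in any comparison by edgeR. Over all tested genes 8.23%, 0.0228% and 15.6% were called in DN against NC, DN+NaB against DN and DN+NaB against NC. At an unadjusted p under 0.05 there were 0 of the 7 in DN against NC (21.9% of all genes) and 0 in DN+NaB against DN (9.85% of all). In DN+NaB against NC there was 1 (30.1% of all). That gene was Sirt6, a chromatin deacetylase tied to repair and glycolysis, with 13.3, 13.2, 13.1 and 11.8 CPM in DN+NaB, 9.98, 11.0, 14.7 and 10.3 CPM in DN, and 10.0, 9.80, 10.5 and 7.64 CPM in NC. DN+NaB was above NC in every library. DN overlapped NC through its replicates 1 and 4, and its replicate 3 was above every DN+NaB library. Sirt6 differed by 0.44 ± 0.15 in DN+NaB against NC (edgeR adjusted p = 0.0640; called in 3 of 16 alternatives), 0.28 ± 0.15 in DN against NC (adjusted p = 0.312) and 0.16 ± 0.15 in DN+NaB against DN (adjusted p = 0.749). Sirt2, at 104 to 113 CPM in DN+NaB, 89.8 to 109.5 CPM in DN and 76.3 to 102 CPM in NC, differed by 0.21 ± 0.11 in DN+NaB against NC (adjusted p = 0.220). Sirt5, which removes succinyl and malonyl groups, had 11.8 to 13.8 CPM in DN+NaB, 8.15 to 13.1 CPM in DN and 9.42 to 10.7 CPM in NC. Sirt3, the main mitochondrial deacetylase, had 56.9 to 65.7 CPM in DN+NaB, 50.9 to 74.5 CPM in DN and 56.5 to 62.7 CPM in NC. The log2 differences of Sirt1, Sirt3, Sirt4 and Sirt7 ran from 0.04 to 0.15 in DN against NC, from -0.23 to 0.15 in DN+NaB against DN and from -0.12 to 0.22 in DN+NaB against NC, with overlap between groups throughout. Exons of Sirt2 and Sirt3 overlap those of coding genes on the other strand, whose reads cannot be fully told apart without the strand used in counting. Sirt7 shares 124 bases, 2.41% of its exons, with Mafg on the same strand, and Mafg itself was higher than NC in DN (0.44, edgeR adjusted p = 0.0251) and in DN+NaB (0.73, adjusted p = 6.68e-04).

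Among the acetyltransferases, 0 of 10 were called in any comparison by edgeR. Over all tested genes the shares were 8.23%, 0.0228% and 15.6% in DN against NC, DN+NaB against DN and DN+NaB against NC. Of the 10, 1, Kat7, had an unadjusted p under 0.05, in DN against NC only. The shares of all tested genes at that p were 21.9%, 9.85% and 30.1% in the same comparisons. Kat7, the MYST enzyme of the HBO1 complexes, had 93.6, 109, 90.7 and 90.8 CPM in DN+NaB, 94.5, 103, 108 and 116.5 CPM in DN, and 83.6, 88.2, 91.0 and 91.2 CPM in NC. Every DN library was above every NC library, and DN+NaB overlapped both. The difference in DN against NC was 0.25 ± 0.10 (unadjusted p = 0.0209, edgeR adjusted p = 0.138). Kat8, the MYST enzyme for histone H4, was at 7.61, 8.38, 6.96 and 8.05 CPM in DN+NaB, 5.63, 6.19, 6.87 and 8.23 CPM in DN, and 5.73, 7.4, 7.38 and 5.20 CPM in NC; the groups overlapped and the difference in DN+NaB against NC was 0.27 ± 0.17 (adjusted p = 0.303). Kat2a, the acetyltransferase of the SAGA and ATAC complexes, had 51.7, 57.1, 52.0 and 53.6 CPM in DN+NaB, 43.0, 51.7, 60.3 and 54.4 CPM in DN, and 51.6, 51.5, 43.4 and 43.7 CPM in NC. DN+NaB and NC were separated for Kat2a by a small margin, with a difference of 0.17 ± 0.11 (adjusted p = 0.337). Kat5, the TIP60 enzyme, had 37.4 to 39.5 CPM in DN+NaB, 31.3 to 45.0 CPM in DN and 34.0 to 35.8 CPM in NC. For Kat5, DN+NaB thus lay above NC without overlap (0.15 ± 0.11, edgeR adjusted p = 0.402). On the other strand, the coding gene Rnaseh2c overlaps 426 bases of the Kat5 exons (12.1%). The paralogs Kat6a and Kat6b, catalytic subunits of the MOZ and MORF complexes, overlapped between all groups: Kat6a differed by -0.01 ± 0.13, -0.17 ± 0.13 and -0.18 ± 0.13 and Kat6b by 0.04 ± 0.10, -0.07 ± 0.10 and -0.03 ± 0.10 in DN against NC, DN+NaB against DN and DN+NaB against NC.

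Hat1, the type B enzyme that acetylates newly made histone H4, and Kat2b, the paralog of Kat2a, varied most among the acetyltransferases within groups. Hat1 had 3.97, 5.48, 7.65 and 9.23 CPM in DN+NaB, 9.48, 7.6, 4.30 and 8.91 CPM in DN, and 4.03, 5.73, 4.23 and 6.52 CPM in NC. The 3 groups overlapped, and the difference of DN from NC was 0.56 ± 0.29 (edgeR adjusted p = 0.277). The level of Kat2b was 42.2, 47.3, 68.9 and 66.5 CPM in DN+NaB, 78.2, 57.0, 44.8 and 98.1 CPM in DN, and 50.1, 54.4, 59.3 and 76.1 CPM in NC, so its groups overlapped too; DN+NaB differed from DN by -0.31 ± 0.23 (adjusted p = 0.693). Ep300, which encodes p300, was at 182, 165, 154 and 172 CPM in DN+NaB, 201, 160.1, 152 and 199 CPM in DN, and 187, 171, 188 and 181 CPM in NC, with overlap among all groups. Crebbp, which encodes its paralog CBP, had 168 to 212 CPM in DN+NaB, 169 to 232 CPM in DN and 190.0 to 204 CPM in NC. The log2 fold changes of Ep300 and Crebbp ran from -0.11 to -0.02 over the 3 comparisons, each with a standard error of 0.11 to 0.12.

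Of the corepressor scaffolds, Sin3a, the platform of the Sin3 complex of Hdac1 and Hdac2, was at 61.8, 60.2, 56.6 and 57.9 CPM in DN+NaB, 62.1, 70.7, 74.9 and 76.1 CPM in DN, and 56.8, 54.1, 55.9 and 67.4 CPM in NC. All DN libraries were above all DN+NaB libraries, and NC replicate 4 lay within the DN range. Sin3a differed by -0.26 ± 0.10 in DN+NaB against DN (unadjusted p = 0.0207, edgeR adjusted p = 0.419) and by 0.28 ± 0.10 in DN against NC (unadjusted p = 0.0159, adjusted p = 0.116), and DN was called higher than NC without NC replicate 4 (0.34, adjusted p = 0.0382). Rcor1, the CoREST scaffold, had 57.1, 48.7, 44.2 and 40.6 CPM in DN+NaB, 50.8, 39.2, 47.8 and 59.7 CPM in DN, and 57.0, 48.5, 54.0 and 58.2 CPM in NC. Its groups overlapped, and the difference in DN+NaB against NC was -0.19 ± 0.14 (edgeR adjusted p = 0.380). Ncor1 differed by -0.13 ± 0.12 in DN+NaB against NC (adjusted p = 0.499).

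The BET readers bind acetylated lysines through paired bromodomains. Brd3 had 41.8, 33.6, 35.1 and 32.4 CPM in DN+NaB, 36.9, 31.9, 33 and 31.4 CPM in DN, and 41.8, 39.9, 36.5 and 36.5 CPM in NC. The groups overlapped, and DN differed from NC by -0.21 ± 0.11 (edgeR adjusted p = 0.269). Brd2 had 0, 43, 14 and 0 counts in DN+NaB, 0, 24, 6 and 12 counts in DN, and 24, 35, 21 and 33 counts in NC. Its exons overlap those of H2-DMa and an antisense gene, and at these counts its difference was not measurable: the 95% interval in DN against NC reached past 1 on both sides.

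**Figure D4:**
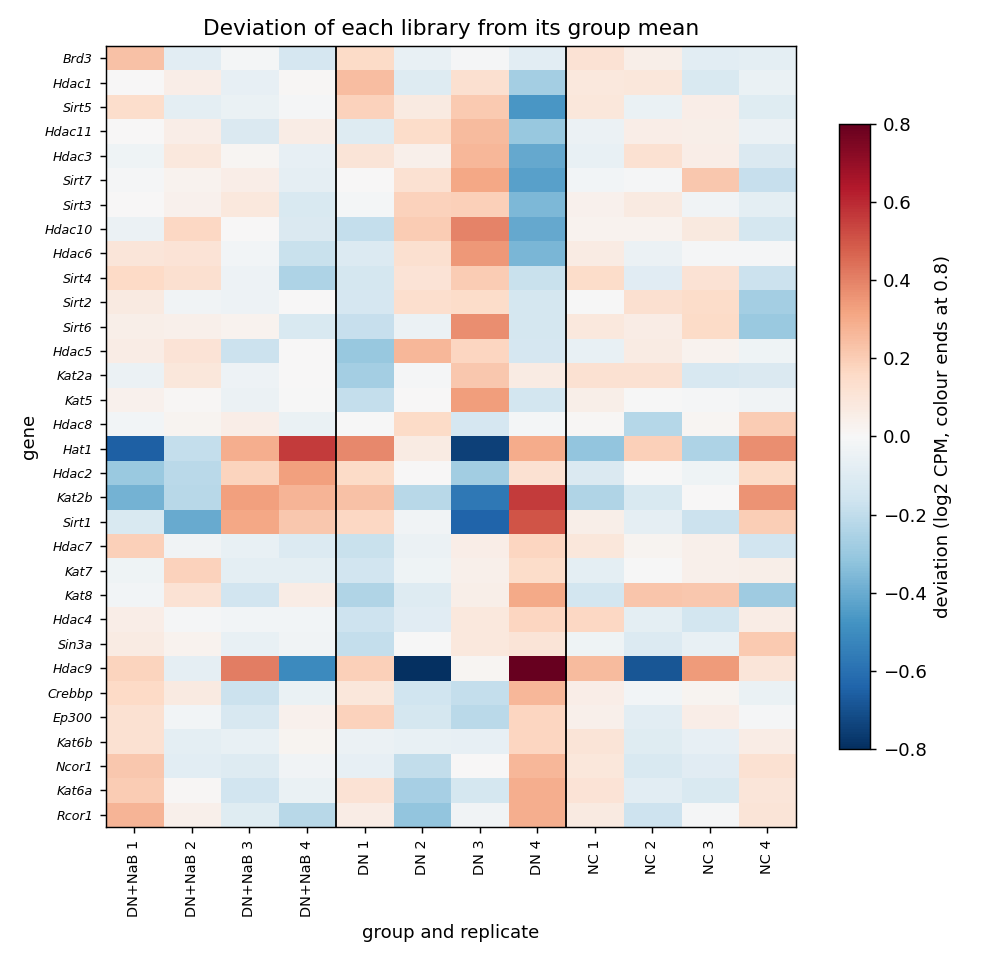
Deviation of each library's log2 CPM from its group mean (red above, blue below, colours end at 0.8) for 32 of the 33 genes, with the libraries of DN+NaB, DN and NC from left to right and genes ordered by likeness; Brd2 is left out for its low counts. DN replicates 3 and 4 deviate most and in opposite directions for many genes, and Hat1, Hdac2, Kat2b and Sirt1 move together.

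Library-to-library variation was uneven. The spread of the 33 genes within groups was small for their level: 25 of 33 had a within-group SD below the 50th percentile of the 500 genes nearest in mean level (median percentile 32.8). Of the 3 groups DN had the largest within-group SD for 25 of the 33 genes (75.8%), and for 57.2% of all tested genes. DN replicates 3 and 4 held the highest DN value for 25 of the 33 genes and the lowest for 19. Hdac3, Hdac6, Hdac10, Hdac11, Sirt2, Sirt3, Sirt4, Sirt5 and Sirt7 were each highest of the DN libraries in replicate 3 and lowest in replicate 4, while Crebbp, Kat2b, Kat6b and Sirt1 were lowest in replicate 3 and highest in replicate 4. These genes were chosen after their values were seen. The TMM factors of DN replicates 1 to 4 were 0.9835, 0.9514, 0.9349 and 1.0614, lowest in replicate 3 and highest in replicate 4. Proximal tubule markers summed to 22500, 31000, 31680 and 19830 CPM in DN replicates 1 to 4. Erythroid markers summed to 10.5, 6.19, 9.66 and 247 CPM in the same libraries. The part of scaling and of these cells in the pattern was not tested.

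Beside these values stood the share of counts of mitochondrially encoded genes, which was 0.518%, 1.16%, 2.83% and 2.83% in DN+NaB, 2.76%, 2.9%, 0.361% and 2.6% in DN, and 0.494%, 0.944%, 1.04% and 1.01% in NC. The lowest share was in DN+NaB replicate 1, DN replicate 3 and NC replicate 1. Of 32 genes (Brd2 left out), Hat1, Hdac2 and Kat2b were lowest of their group in all 3 of these libraries, and Kat5, Sirt4 and Sirt5 were highest in all 3. Within DN, 12 of the 32 were highest and 8 lowest in replicate 3. Hdac2 had 10.9, 11.5, 15.2 and 16.8 CPM in DN+NaB, 15, 13.5, 11.1 and 14.7 CPM in DN, and 12.3, 13.3, 13.0 and 14.8 CPM in NC. Sirt1, the sirtuin that deacetylates p53 and PGC-1 alpha, had 9.87, 8.11, 13.4 and 12.5 CPM in DN+NaB, 13.9, 12.1, 7.90 and 17.5 CPM in DN, and 12.2, 11.3, 10.5 and 13.6 CPM in NC. Sirt1 was lowest in DN replicate 3 too, but in DN+NaB and NC its lowest values were in replicates 2 and 3. Hdac6 was highest in DN replicate 3 and NC replicate 1, and among DN+NaB in replicate 2. The genes named beside the share were chosen after their values were seen. The part of the mitochondrial share in these levels was not tested.

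**Figure D5:**
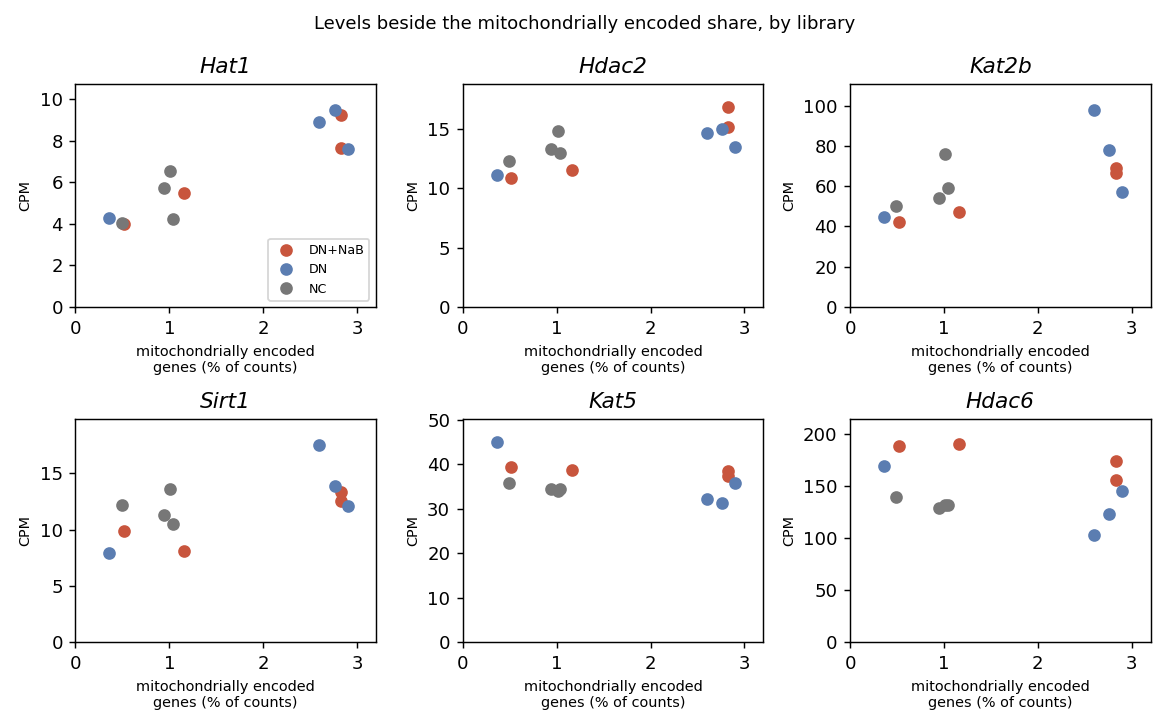
CPM of Hat1, Hdac2, Kat2b, Sirt1, Kat5 and Hdac6 in each of 12 libraries (y axes, from 0) against the percentage of counts from mitochondrially encoded genes (x axes), coloured by group. The libraries fall in clusters at low and high share (0.361% to 1.16% and 2.6% to 2.9%), and Hat1 lies between 3.97 and 6.52 CPM in the low cluster and between 7.6 and 9.48 CPM in the high one; Kat5 and Hdac6 have their highest DN values in the DN library of lowest share.

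Genes that work with the 33 were read from lists of their complexes and cofactors. Of 33 other corepressor subunits, 1 rose and 2 fell in DN against NC, 0 were called in DN+NaB against DN, and 1 was higher and 3 lower in DN+NaB than NC. The shares called were 9.09% in DN against NC and 12.1% in DN+NaB against NC, beside 8.23% and 15.6% of all tested genes. In DN+NaB against DN only 0.0228% of all tested genes were called, so 0 called there says little about these subunits. Sap30, a Sin3 subunit, fell by 0.78 ± 0.23 in DN against NC (edgeR adjusted p = 0.0499) and by 0.91 ± 0.23 in DN+NaB against NC (adjusted p = 0.0150), while Sap130, of the same complex, rose by 0.31 ± 0.09 and 0.28 ± 0.09 (adjusted p = 0.0455 and 0.0461). Chd3, a NuRD helicase, had 375 ± 78.9 CPM in DN and 583 ± 73.0 CPM in NC (n = 4 each, log2 fold change -0.64 ± 0.16, adjusted p = 0.0261). Of the genes called in DN+NaB against NC, Ing1, a Sin3 subunit, fell by 0.46 ± 0.15 (adjusted p = 0.0482). Of these 33, the smallest p in DN+NaB against DN was that of Elmsan1, the scaffold of the MiDAC complex, with a difference of -0.28 ± 0.10 (adjusted p = 0.397).

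Of 40 other acetyltransferases and complex subunits, 1 rose and 0 fell in DN against NC, 0 were called in DN+NaB against DN, and 2 were higher and 2 lower in DN+NaB than NC. That was 2.5% in DN against NC and 10% in DN+NaB against NC, beside the same 8.23% and 15.6%. The share of all tested genes called in DN+NaB against DN was 0.0228%. Jade2, a scaffold of HBO1 complexes, had 94.2 ± 13.2 CPM in DN and 63.2 ± 7.71 CPM in NC (n = 4 each, log2 fold change 0.57 ± 0.12, edgeR adjusted p = 0.00703), and differed by -0.27 ± 0.12 in DN+NaB against DN (adjusted p = 0.475). Among genes called in DN+NaB against NC, the SAGA subunits Tada3 and Supt7l rose by 0.50 ± 0.13 and 0.45 ± 0.14, and Ncoa2, a nuclear receptor coactivator, and Naa60, a protein N-terminal acetyltransferase, fell by 0.45 ± 0.12 and 0.40 ± 0.12 (adjusted p = 0.0166, 0.0400, 0.0230 and 0.0341).

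Of 32 tested other readers of acetyl-lysine, 1 fell and 0 rose in DN against NC, 0 were called in DN+NaB against DN, and 0 were higher and 3 lower in DN+NaB than NC. That was 3.12% and 9.38% against NC in DN and DN+NaB, beside 8.23% and 15.6% of all genes. The share of all genes called in DN+NaB against DN was 0.0228%. Smarca2, the bromodomain ATPase BRM of the SWI/SNF complexes, had the smallest adjusted p of the list. It averaged 92.1 ± 5.85 CPM in DN+NaB, 121 ± 30.5 CPM in DN and 248 ± 25.2 CPM in NC (SD, n = 4 each). It fell by 1.04 ± 0.15 in DN against NC (edgeR adjusted p = 7.13e-04) and by 1.43 ± 0.15 in DN+NaB against NC (adjusted p = 4.54e-05), and differed by -0.39 ± 0.15 in DN+NaB against DN (adjusted p = 0.424). Its paralog Smarca4, chosen after its values were seen, differed by 0.02 ± 0.11 and 0.11 ± 0.11 in DN and in DN+NaB against NC (adjusted p = 0.960 and 0.545). Mllt3, the YEATS-domain reader AF9, and Atad2, a bromodomain ATPase, fell in DN+NaB against NC by 0.72 ± 0.19 and 1.22 ± 0.38 (adjusted p = 0.0216 and 0.0437).

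Of 24 genes that supply acetyl-CoA and NAD, 1 rose and 2 fell in DN against NC, 0 were called in DN+NaB against DN, and 2 were higher and 3 lower in DN+NaB than NC. That was 12.5% and 20.8% against NC in DN and DN+NaB, beside 8.23% and 15.6% of all genes. The share of all genes called in DN+NaB against DN was 0.0228%. Acss3, a mitochondrial short-chain acyl-CoA synthetase, had 7.27 ± 0.501 CPM in DN+NaB, 8.54 ± 1.78 CPM in DN and 15 ± 1.72 CPM in NC (SD, n = 4 each), and fell by 0.82 ± 0.16 in DN against NC and by 1.05 ± 0.16 in DN+NaB against NC (edgeR adjusted p = 0.00532 and 6.43e-04). Naprt, which makes NAD from nicotinic acid, rose by 0.47 ± 0.14 and 0.53 ± 0.14 in the same comparisons (adjusted p = 0.0491 and 0.0180), and Cd38, which breaks NAD down, fell by 0.63 ± 0.18 in DN against NC (adjusted p = 0.0485). Slc33a1, the acetyl-CoA carrier of the endoplasmic reticulum, fell in DN+NaB against NC by 0.53 ± 0.09 and Nmrk1, a nicotinamide riboside kinase, by 0.78 ± 0.19 (adjusted p = 0.00156 and 0.0125). The difference of Slc33a1 in DN+NaB against DN was -0.33 ± 0.09 (adjusted p = 0.221).

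Of 16 tested transcripts of well-studied sirtuin substrates, 2 rose and 0 fell in DN against NC, 0 were called in DN+NaB against DN, and 2 were higher and 1 lower in DN+NaB than NC. That was 12.5% and 18.8% against NC in DN and DN+NaB, beside 8.23% and 15.6% of all genes. The share of all genes called in DN+NaB against DN was 0.0228%. Foxo1, a transcription factor deacetylated by Sirt1, rose by 0.36 ± 0.10 in DN over NC (edgeR adjusted p = 0.0460) and Glud1, glutamate dehydrogenase, by 0.38 ± 0.10 in DN+NaB over NC (adjusted p = 0.0159). Nr1h4, the bile acid receptor FXR, fell by 0.71 ± 0.12 in DN+NaB against NC (adjusted p = 0.00115) and differed by -0.47 ± 0.12 in DN+NaB against DN (adjusted p = 0.166).

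Of 14 genes reported to respond to deacetylase or BET inhibitors in cultured cells, 2 rose and 0 fell in DN against NC, 0 were called in DN+NaB against DN, and 1 was higher and 2 lower in DN+NaB than NC. That was 14.3% and 21.4% against NC in DN and DN+NaB, beside 8.23% and 15.6% of all genes. The share of all genes called in DN+NaB against DN was 0.0228%. The list sets no direction of response for its genes, so its median log2 fold change does not measure such a response. That median was -0.05 in DN+NaB against DN, beside -0.02 over all tested genes. At an unadjusted p under 0.05 there was 1 of 14 in this comparison, against 9.85% of all tested genes. That gene was Thbs1, which encodes the matrix protein thrombospondin, with 138 ± 23.3 CPM in DN+NaB and 192 ± 70.4 CPM in DN (n = 4 each, log2 fold change -0.48 ± 0.21, edgeR adjusted p = 0.473). Clu, the chaperone clusterin, rose by 0.66 ± 0.18 in DN and by 0.72 ± 0.18 in DN+NaB over NC (adjusted p = 0.0363 and 0.0146), and Cdkn1c, a cell cycle inhibitor, by 0.58 ± 0.16 in DN over NC (adjusted p = 0.0353). Serpini1 and Klf2, an endothelial factor, fell by 1.01 ± 0.31 and 0.64 ± 0.20 in DN+NaB against NC (adjusted p = 0.0406 and 0.0412). Cdkn1a, the p21 gene, chosen after its values were seen, averaged 27.0 ± 10.0 CPM in DN+NaB, 22.9 ± 15.4 CPM in DN and 10.4 ± 4.89 CPM in NC, and differed by 0.24 ± 0.46 in DN+NaB against DN (adjusted p = 0.883).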

How the data were processed

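The authors deposited whole-number read counts per gene symbol for 12 renal cortex libraries in 1 table, not normalized; each column name matched 1 sample title. Per the submitters' processing notes the aligner was HISAT2 2.0.4. How reads were counted, whether strand was used, and with which annotation and build is not given in the sources used here, so overlapping genes are uncertain. In GENCODE vM21 the exons of 16 of the 33 genes overlap those of another gene, and for 8 a coding gene. From these counts, genes were filtered by group (filterByExpr), scaled with TMM factors and fitted in 1 edgeR 4.0.16 quasi-likelihood model of all 12 libraries with group as the only term (R 4.3.3); tests are two-sided, adjusted over 17530 genes, and called at 0.05 with no fold limit. The alternatives were other scaling, filters, a replicate block, fits of 8 libraries, DESeq2 1.42.0, limma 3.58.1 (voom) and leaving out each library. The fit was checked on simulated counts. Libraries differed beyond sampling noise (smallest chi-square per degree of freedom within groups 23.6). The 33 genes and the lists were chosen with earlier results of these data known. Library values are given for genes called anywhere and for the smallest p per class and comparison, and from each other list up to 4 called genes per comparison with the smallest adjusted p, or else the smallest p. Cell type markers are given as sums. Some called genes of these lists are counted but not reported here by name.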

Additional observations from a re-analysis of the deposited data

Results flagged for a closer look

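In 3 of 99 groups of 4 values (33 genes in 3 groups), 1 library stood apart from the other 3 of its group by Dixon's criterion; chance gives about 1 in 20. Kat6b, a MYST acetyltransferase gene, was at 49.6 CPM in DN replicate 4 and between 42.2 and 42.8 CPM in the other DN libraries. Kat7 was at 109.0 CPM in DN+NaB replicate 2 and between 90.7 and 93.6 CPM in the other DN+NaB libraries. Sirt6 was at 11.8 CPM in DN+NaB replicate 4 and between 13.1 and 13.3 CPM in the other DN+NaB libraries, and all 4 of these values were above every NC library.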

How the results depend on the processing

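Of the 33 genes, 1 was called in DN against NC, beside 8.23% of all tested genes. It was 0 with library size only, with no filter, with only the 8 libraries compared or with limma-voom. Under these 4 settings 9.16%, 4.7%, 6.18% and 8.09% of all tested genes were called. Leaving out 1 library gave 0 to 1. For DN+NaB against DN the number called was 0, with DESeq2 1 (1.47% of all tested genes), and 0 to 0 with 1 library left out. For DN+NaB against NC the number called was 3 (15.6% of all tested genes). With only the 8 libraries it was 6 (also Hdac6, Hdac10 and Sirt6, 23.4% of all). With DESeq2 it was 5 (also Hdac6 and Sirt6, 20.3% of all). With library size only and with no filter it was 2 each (16.8% and 8.92% of all). RLE factors and at least 1 CPM in 4 libraries gave 4 each (15.7% and 18.3%), and limma-voom 3 (15.8%). It was 2 to 2 with 1 library left out (Hdac5 and Hdac7). Deviations of same-numbered libraries had r from -0.245 to 0.269, with 6 of 12 over 0.1 and the own number best in 5 of 12. Number 4 was its own best match in each comparison (0.2 to 0.269), and in DN+NaB against NC 3 of 4 numbers were. In no comparison were all 4 over 0.1, so the numbers were not taken as pairs; with the replicate block 1, 0 and 5 of the 33 were called (16.5% of all genes in DN+NaB against NC), and 7 of all genes in DN+NaB against DN. Over all genes 1443 were called in DN against NC (942 to 1976 with 1 library left out) and 2729 in DN+NaB against NC (1833 to 2318). Library size only gave 503 higher and 1103 lower in DN against NC, in place of 669 and 774, and 875 higher and 2070 lower in DN+NaB against NC, in place of 1161 and 1568; the median of all genes was then -0.08 and -0.12. Over all genes 4 were called in DN+NaB against DN: 22 with RLE factors, 26 with library size only, 27 with no filter, 17 with at least 1 CPM in 4 libraries, 0 with only the 8 libraries, 257 with DESeq2, 2 with limma-voom, and 0 to 67 with 1 library left out. Separated groups numbered 1 of 33 in DN against NC (2 with TMM) and 6 in DN+NaB against NC (10 with TMM) with library size only. The share of all genes separated with library size only was not counted.

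Of 768 alternative values for 16 genes in 3 comparisons, 709 kept direction and side of the threshold. Most of these 48 results were not called to begin with. A call was gained in 10 and lost in 20. The lost calls were 10 of Hdac5 in DN against NC and 10 of Hdac11 in DN+NaB against NC, each of 16 alternatives. The sign changed in 29, none of them of a called value. Without 1 library, log2 fold changes in DN against NC crossed zero for Hdac7 (-0.127 to 0.010), Hdac6 (-0.101 to 0.111), Kat2b (-0.015 to 0.375), Kat8 (-0.065 to 0.145) and Ep300 (-0.107 to 0.037). They did so in DN+NaB against DN for Hdac1 (-0.062 to 0.105), Hdac5 (-0.029 to 0.156), Kat2a (-0.048 to 0.110) and Rcor1 (-0.150 to 0.053), and in DN+NaB against NC for Hdac8 (-0.042 to 0.093), Kat2b (-0.204 to 0.032) and Sin3a (-0.027 to 0.074). Library size only turned Hdac6 (-0.084) and Kat8 (-0.014) in DN against NC and Hdac8 (-0.084) and Sin3a (-0.103) in DN+NaB against NC; at least 1 CPM in 4 libraries turned Hdac6 (-0.007) in DN against NC, Hdac8 (-0.003) and Sin3a (-0.024), and no filter turned Sin3a (-0.001). The cause was not tested. Counts limit Brd2 and Hdac9 most.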
